A study of Mus musculus with 8 samples.

Results

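The MHC class II genes and their invariant chain were followed in mouse multipotent progenitors carrying FLT3-ITD and in wild type (WT) progenitors. The set held 10 genes: Cd74, H2-Aa, H2-Ab1, H2-Eb1, Ciita, H2-DMa, H2-DMb1, H2-DMb2, H2-Oa and H2-Ob. Every array probe set that the platform annotation gives to at least 1 of these genes was taken, which made 22 probe sets of 45037. The genes were chosen by their function with the FLT3-ITD minus WT differences of these same arrays already known, so those differences, and the calls of the fit over all probe sets, are given for them as a description with no p-value.

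FLT3 is a receptor tyrosine kinase of early blood cells, and FLT3-ITD is its form with an internal tandem duplication, known from acute myeloid leukaemia. The 4 FLT3-ITD and 4 WT samples came from bone marrow of female C57BL6 mice aged 8 to 10 weeks, with 1 array per sample. In both genotypes the cells lacked lineage markers and CD150 and carried Sca-1, CD48 and c-Kit. The labels give neither the construct that carries FLT3-ITD nor its zygosity. Within each genotype the samples are numbered 1, 2, 3 and again 1 with the tag 037, which is called sample 037 below. No source used here says what 037 stands for or that the samples came from separate mice, and 037 may be a repeat of sample 1. The p-values below therefore rest on a spread between samples that may be technical.

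MHC class II molecules are pairs of an alpha and a beta chain that present peptides from the endosome to CD4+ T cells. H2-Aa and H2-Ab1 encode the alpha and beta chains of I-A, and H2-Eb1 encodes the beta chain of I-E, whose alpha chain gene H2-Ea is defective in the C57BL6 haplotype. Cd74, the invariant chain, fills the groove of new class II molecules and guides them to the endosome, where the H2-DM pair exchanges its remnant for peptide and the H2-O pair restrains H2-DM. Ciita is the coactivator that switches class II genes on through factors bound to a shared X box and Y box in their promoters. Dendritic cells, B cells and macrophages are the best known carriers of class II.

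The gate was checked against the genes of its markers. Kit, which encodes c-Kit, averaged well above the array medians in both genotypes and read 0.47 lower on the log2 scale in FLT3-ITD, without passing the test (limma adjusted p = 0.526). Cd48 rose in FLT3-ITD, as described with the marker lists, and Slamf1, which encodes CD150, lay below the array median on every array. The Sca-1 gene, Ly6a, was not analysed here. Pairwise correlations between the arrays were 0.948 to 0.981, and FLT3-ITD sample 1 stood apart at 0.948 to 0.959 to the other 7. Samples 1 and 037 correlated at 0.953 in FLT3-ITD and 0.969 in WT, the lowest value within each genotype. The difference between 3′ and 5′ control probe sets of Gapdh, a measure of RNA quality, was 2.99 in FLT3-ITD sample 037, against 1.88 to 2.29 in the other FLT3-ITD samples and 1.82 to 2.08 in the WT samples. For beta-actin it was 0.17 in FLT3-ITD sample 037, against −0.48 to −0.35 in the other FLT3-ITD samples and −0.47 to −0.32 in the WT samples. Each result that rests on FLT3-ITD samples 1 or 037 is given with that in view.

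The X box core is bound by the RFX complex and the Y box core by NF-Y. The stretches below are shown around the Y box core, with the X box core where its letters occur, so that members that differed much and little between the genotypes can be read side by side. They were taken from the RefSeq promoter table of build GRCm38.p6, which holds 250 bases before to 50 bases after each gene start. Of the 10 members, 7 matched an entry, and Cd74, H2-Ab1 and Ciita were not used here. Each run has 66 bases, 5′ to 3′ on the gene's strand, with capitals for GNAAC (X box core) and GATTGG (Y box core).
H2-Aa at chr17:34287857-34287922, minus strand: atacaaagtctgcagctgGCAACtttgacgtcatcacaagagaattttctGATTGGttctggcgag
H2-Eb1 at chr17:34305757-34305822, plus strand: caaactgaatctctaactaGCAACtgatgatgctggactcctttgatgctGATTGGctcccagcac
H2-DMb1 at chr17:34153079-34153144, plus strand: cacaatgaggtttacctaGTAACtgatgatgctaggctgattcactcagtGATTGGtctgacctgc
H2-DMb2 at chr17:34145108-34145173, plus strand: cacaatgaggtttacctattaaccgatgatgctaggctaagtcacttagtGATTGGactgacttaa
H2-Oa at chr17:34092285-34092350, plus strand: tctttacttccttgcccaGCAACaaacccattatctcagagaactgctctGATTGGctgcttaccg
H2-Ob at chr17:34238797-34238862, plus strand: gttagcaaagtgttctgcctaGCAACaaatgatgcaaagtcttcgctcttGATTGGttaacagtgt

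GATTGG was searched on both strands and occurred in an entry of all 7 matched members, against 16.1% of the 32851 promoter entries in the table. GNAAC alone was in 84.8% of entries. GNAAC followed after 15 to 40 bases by GATTGG was in 1.45% of entries, and H2-Aa, H2-Eb1, H2-DMb1, H2-Oa and H2-Ob were the 5 members that held this pair, with gaps of 24 to 27 bases. The Y box core began 49 bases before the gene start in H2-Aa, 60 in H2-Eb1, 62 in H2-DMb1, 91 in H2-DMb2, 44 in H2-Oa and 58 in H2-Ob. In H2-DMb2 the letters GNAAC did not occur at the place of the X box core of H2-DMb1, and neither of 2 entries of H2-DMa held the pair. The motifs were chosen after the promoters were read, and a match is no shown binding site. H2-Aa and H2-Eb1, with large differences between the genotypes, and H2-Oa and H2-Ob, with small ones, were alike in holding the pair.

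Over the whole set, 21 of 22 probe sets read higher in FLT3-ITD, with a median difference of 1.53 on the log2 scale, beside 52.5% of all probe sets with a positive difference and a median of 0.01. By limma with Benjamini-Hochberg adjustment over all 45037 probe sets, 8 of the 22 were called higher at an adjusted p of 0.05 and none lower, where 0.111% of all probe sets were called higher and 0.0289% lower. In 11 of 22 every FLT3-ITD value lay above every WT value, against 2.88% of all probe sets, and in none below, against 2.3%. The set was chosen for this contrast, so these counts describe it and support nothing. The arrays measured bulk RNA, in which a larger share of cells carrying class II RNA and more class II RNA per cell cannot be told apart.

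**Figure D1:**
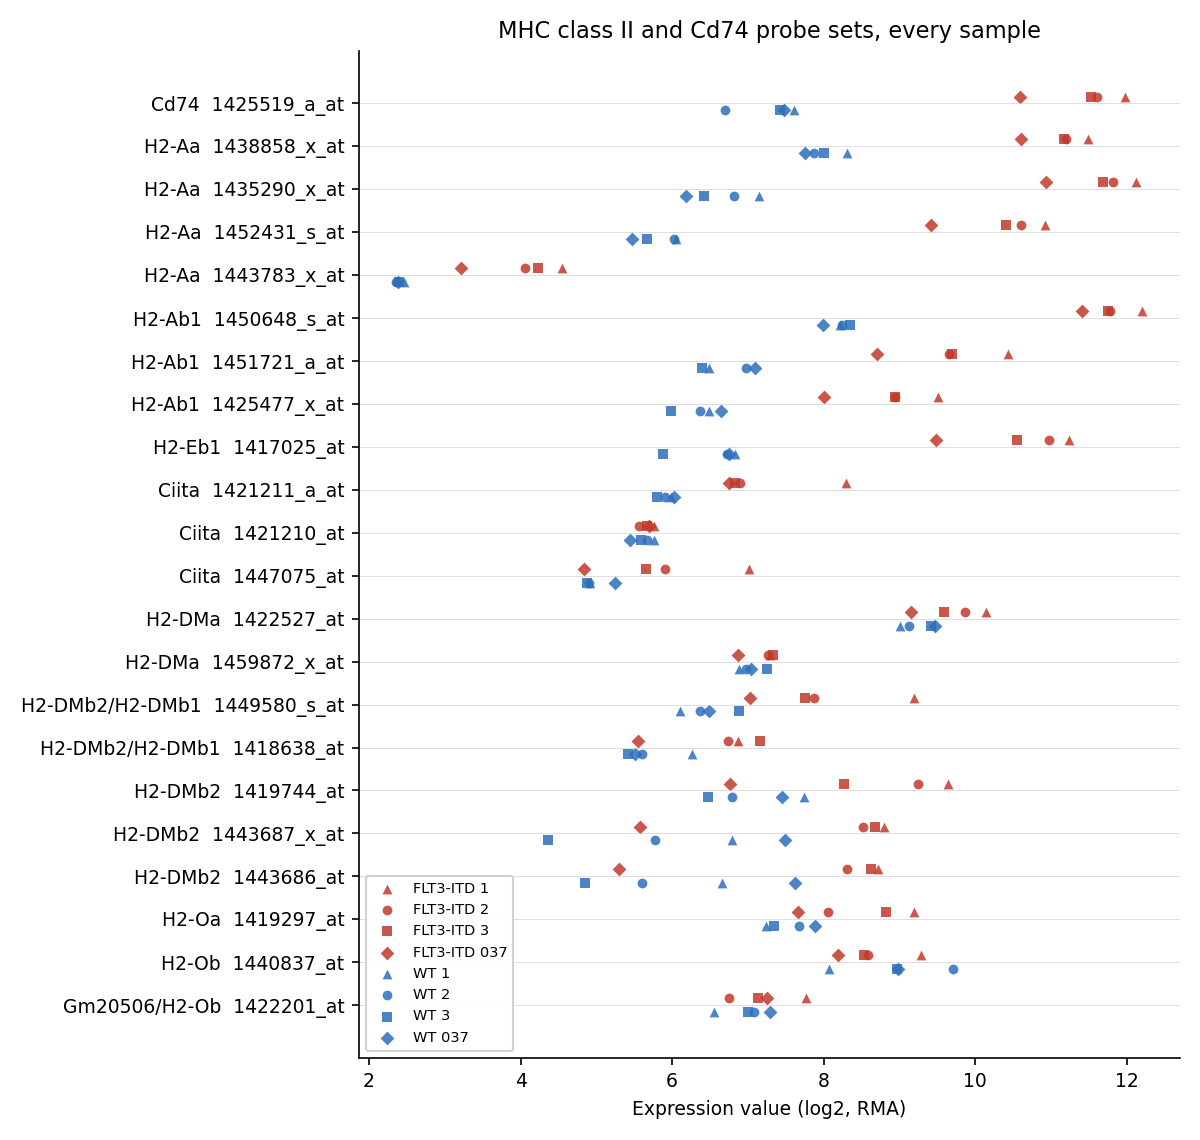
Expression value (log2, RMA) of each of the 22 probe sets on the horizontal axis, with 1 point per sample, FLT3-ITD in red above WT in blue and a marker shape for each sample number. The groups stand apart for Cd74, H2-Aa, H2-Ab1 and H2-Eb1 and overlap for most probe sets of Ciita, H2-DM and H2-O.

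The chaperone and the classical chains held all 8 calls. Their 9 probe sets differed by 1.61 to 5.0 on the log2 scale, with a median of 3.58, and none of them overlapped between the genotypes. Cd74, by its probe set 1425519_a_at, read 11.98, 11.61, 11.53 and 10.59 in FLT3-ITD samples 1, 2, 3 and 037, against 7.61, 6.70, 7.43 and 7.48 in the WT samples in the same order. The lowest FLT3-ITD value of Cd74, in sample 037, still lay well above the highest WT value. The difference was 4.12 ± 0.31 (SE, n = 4 each), a 17.4-fold difference in the RMA value.

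H2-Aa, the I-A alpha chain, had 4 probe sets. At 1435290_x_at it read 12.13, 11.82, 11.70 and 10.94 in FLT3-ITD samples 1, 2, 3 and 037, against 7.15, 6.82, 6.43 and 6.19 in the WT samples. This 5.0 ± 0.29 (SE), or 32.0-fold, was the largest difference among the 22 probe sets. At 1452431_s_at H2-Aa read 10.93, 10.60, 10.41 and 9.42 in FLT3-ITD, against 6.05, 6.02, 5.66 and 5.47 in WT, a difference of 4.54 ± 0.31. At 1438858_x_at it read 11.49, 11.20, 11.18 and 10.60 in FLT3-ITD, against 8.32, 7.87, 8.00 and 7.76 in WT, a difference of 3.13 ± 0.20. These 3 probe sets placed the samples of FLT3-ITD in one order, with sample 1 highest and sample 037 lowest, and all were called. The last probe set, 1443783_x_at, read 3.22 to 4.55 in FLT3-ITD and 2.36 to 2.47 in WT, below the array median on every array. Its difference of 1.61 ± 0.25 was not called with all samples and was called without FLT3-ITD sample 037. Probe sets ending in _x_at hold probes that can match other transcripts and those ending in _s_at probes shared by several, and the source of the spread of 1.61 to 5.0 among the probe sets of H2-Aa was not tested.

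H2-Ab1, the I-A beta chain, had 3 probe sets, all called. At 1450648_s_at it read 12.21, 11.78, 11.76 and 11.41 in FLT3-ITD samples 1, 2, 3 and 037, against 8.22, 8.25, 8.35 and 7.99 in the WT samples. The difference was 3.58 ± 0.17 (SE), or 12-fold, with the smallest spread within either genotype among the called probe sets. At 1451721_a_at H2-Ab1 read 10.43, 9.65, 9.70 and 8.71 in FLT3-ITD, against 6.48, 6.98, 6.39 and 7.10 in WT, a difference of 2.88 ± 0.34. At 1425477_x_at it read 9.51, 8.94, 8.94 and 8.00 in FLT3-ITD, against 6.49, 6.37, 5.99 and 6.64 in WT, a difference of 2.47 ± 0.30. Neither of these 2 was called when any of 6 samples was left out, namely FLT3-ITD 2 or 3 or any WT sample, and both kept the call without FLT3-ITD 1 or 037. In a fit with replicate number as a block neither of them was called.

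H2-Eb1, the I-E beta chain, read 11.24, 10.98, 10.56 and 9.49 at 1417025_at in FLT3-ITD samples 1, 2, 3 and 037, against 6.83, 6.73, 5.88 and 6.75 in the WT samples. FLT3-ITD sample 037 was the lowest of its genotype by more than 1 log2 unit and WT sample 3 the lowest of the other. The difference was 4.02 ± 0.38 (SE), or 16.2-fold, and was called, but not in a fit with replicate number as a block.

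The coactivator and the peptide-loading genes gave none of the calls. Their 13 probe sets differed by −0.28 to 1.78 with a median of 0.88, and 2 of them did not overlap between the genotypes. Ciita, at 1421211_a_at, read 8.30, 6.90, 6.84 and 6.75 in FLT3-ITD samples 1, 2, 3 and 037, against 5.98, 5.91, 5.80 and 6.02 in the WT samples. The groups did not overlap, sample 1 stood far above the other FLT3-ITD samples, and the WT values lay below the array median on every array. The difference of 1.27 ± 0.32 (SE), or 2.41-fold, was not called with all samples and was called without FLT3-ITD sample 1, where it was 0.90. At 1447075_at Ciita read 7.01, 5.91, 5.66 and 4.83 in FLT3-ITD, against 4.92, 4.90, 4.88 and 5.25 in WT. Here FLT3-ITD sample 037 lay below all WT samples, and the difference was 0.86 ± 0.39. The probe set 1421210_at of Ciita read 5.56 to 5.76 in FLT3-ITD and 5.45 to 5.76 in WT, below the array median on every array, with a difference of 0.06 ± 0.11.

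H2-DMa, the alpha chain of the peptide exchanger, read 10.15, 9.87, 9.59 and 9.15 at 1422527_at in FLT3-ITD samples 1, 2, 3 and 037, against 9.02, 9.12, 9.42 and 9.48 in the WT samples. The groups overlapped through FLT3-ITD sample 037, and the difference was 0.43 ± 0.22 (SE). At 1459872_x_at H2-DMa read 6.88 to 7.34 in FLT3-ITD and 6.88 to 7.26 in WT, a difference of 0.16 ± 0.14.

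The beta chains of H2-DM come from a pair of like genes, H2-DMb1 and H2-DMb2, and no probe set was given to H2-DMb1 alone. Of 2 probe sets given to both genes, 1449580_s_at read 9.20, 7.87, 7.76 and 7.03 in FLT3-ITD samples 1, 2, 3 and 037, against 6.11, 6.37, 6.89 and 6.49 in the WT samples. The groups did not overlap, and the difference of 1.5 ± 0.41 (SE), or 2.83-fold, was not called. The other, 1418638_at, read 6.87, 6.73, 7.16 and 5.55 in FLT3-ITD, against 6.26, 5.60, 5.42 and 5.51 in WT, a difference of 0.88 ± 0.35. H2-DMb2 alone, at 1419744_at, read 9.64, 9.25, 8.27 and 6.77 in FLT3-ITD, against 7.74, 6.79, 6.48 and 7.45 in WT. FLT3-ITD sample 037 lay inside the WT range here, and the difference was 1.37 ± 0.60. At 1443687_x_at H2-DMb2 read 8.80, 8.52, 8.68 and 5.58 in FLT3-ITD, against 6.79, 5.78, 4.37 and 7.49 in WT, and at 1443686_at 8.72, 8.31, 8.62 and 5.30, against 6.66, 5.60, 4.86 and 7.62. In both, 3 FLT3-ITD samples lay above every WT sample while sample 037 lay below 3 of 4 WT samples. These last 2 probe sets were designed on the same transcript sequence and are not independent.

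H2-Oa and H2-Ob encode the chains of the H2-DM inhibitor. H2-Oa, at 1419297_at, read 9.19, 8.06, 8.83 and 7.67 in FLT3-ITD samples 1, 2, 3 and 037, against 7.24, 7.68, 7.35 and 7.89 in the WT samples, a difference of 0.90 ± 0.33 (SE). H2-Ob, at 1440837_at, read 9.29, 8.59, 8.53 and 8.19 in FLT3-ITD, against 8.07, 9.71, 8.97 and 8.98 in WT. This was the sole probe set of the 22 with a negative difference, −0.28 ± 0.35, and its groups overlapped widely. A probe set given to H2-Ob and the overlapping Gm20506, 1422201_at, read 6.75 to 7.77 in FLT3-ITD and 6.56 to 7.29 in WT, a difference of 0.25 ± 0.23. The differences of H2-Oa and H2-Ob were opposite in sign, and the contrast between them was not tested.

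A filter asking for a value above the array median in 4 or more arrays would have kept 19 of the 22. In 4 of the 22 the WT values lay below the array median on every array, and 2 of the 22 were below it on all 8 arrays, 1 each of H2-Aa and Ciita.

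The FLT3-ITD samples were ordered alike over much of the set. Sample 037 was the lowest FLT3-ITD sample in 20 of 22 probe sets, against 24.5% of all probe sets, and sample 1 the highest in 20, against 31.2%. Both held together in 18 of 22, against 10.5% of all probe sets. Among all 50 probe sets called higher, sample 037 was lowest in 25. These include the 8 called member probe sets, in each of which sample 037 was lowest. The median deviation from the genotype mean over the 22 probe sets was 0.62 in FLT3-ITD sample 1, 0.08 in sample 2, 0.06 in sample 3 and −0.82 in sample 037, on the log2 scale. In WT samples 1, 2, 3 and 037 it was 0.09, −0.03, −0.12 and 0.13. Over all probe sets these medians lay between −0.02 and 0.03, where RMA places every array. FLT3-ITD sample 037 also had the highest 3′ to 5′ control differences, and their part in its low class II values was not tested.

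**Figure D2:**
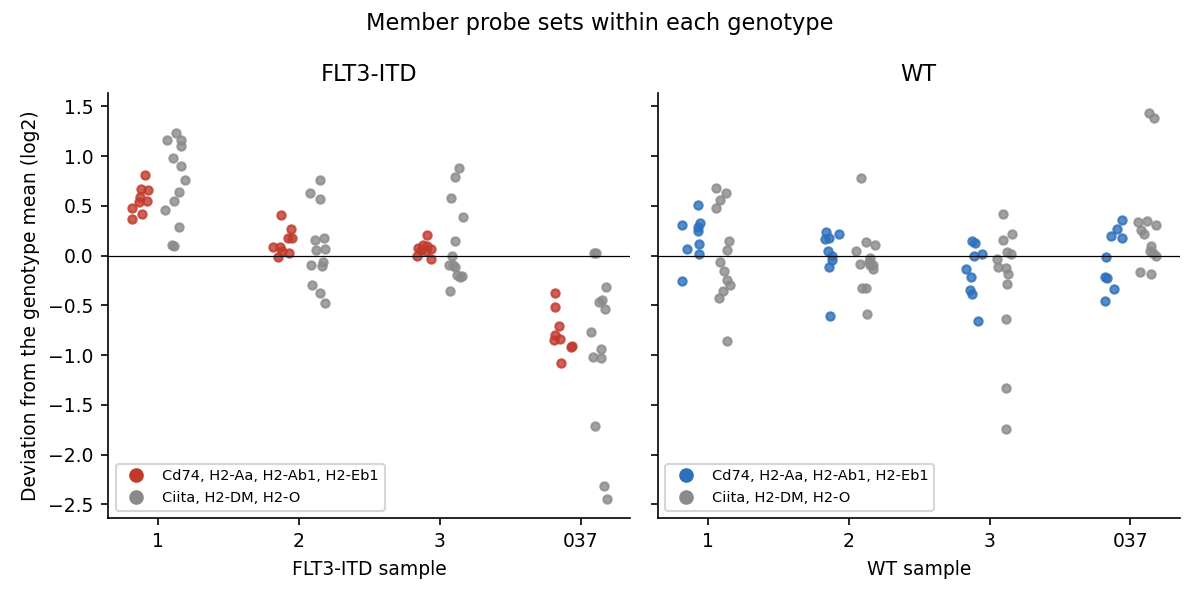
Deviation of each member probe set from the mean of its genotype (log2) in each sample, FLT3-ITD on the left and WT on the right, with 1 point per probe set, moved sideways for legibility. Colour marks Cd74, H2-Aa, H2-Ab1 and H2-Eb1 and grey the other members. Most points of FLT3-ITD sample 1 lie above 0 and most of FLT3-ITD sample 037 below.

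Without both samples numbered 037, an alternative chosen after the data were seen, Cd74 differed by 4.46 ± 0.27 and H2-Eb1 by 4.44, near their values with all samples. H2-DMb2 at 1419744_at then differed by 2.05 ± 0.45, at 1443687_x_at by 3.02 ± 0.57 and at 1443686_at by 2.85 ± 0.44, and none of these was called. Between the samples numbered 037 alone, FLT3-ITD minus WT was 3.12 for Cd74, 4.75 for H2-Aa at 1435290_x_at, 3.42 for H2-Ab1 at 1450648_s_at and 2.74 for H2-Eb1. It was −0.68, −1.92 and −2.32 for the 3 probe sets of H2-DMb2, −0.22 for H2-Oa and −0.32 for H2-DMa at 1422527_at. Over the 9 probe sets of Cd74 and the classical chains this difference was positive in 9 and ran from 0.83, for H2-Aa at 1443783_x_at, to 4.75. Over the 13 probe sets of Ciita, H2-DM and H2-O it was positive in 4 and ran from −2.32 to 0.73, the highest being Ciita at 1421211_a_at. These are differences of 1 sample against 1. Without FLT3-ITD sample 037, which leaves 3 against 4 samples, 19 of the 22 probe sets were higher in FLT3-ITD without overlap, beside 4.66% of all probe sets, and 9 were called higher, beside 0.122%.

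**Figure D3:**
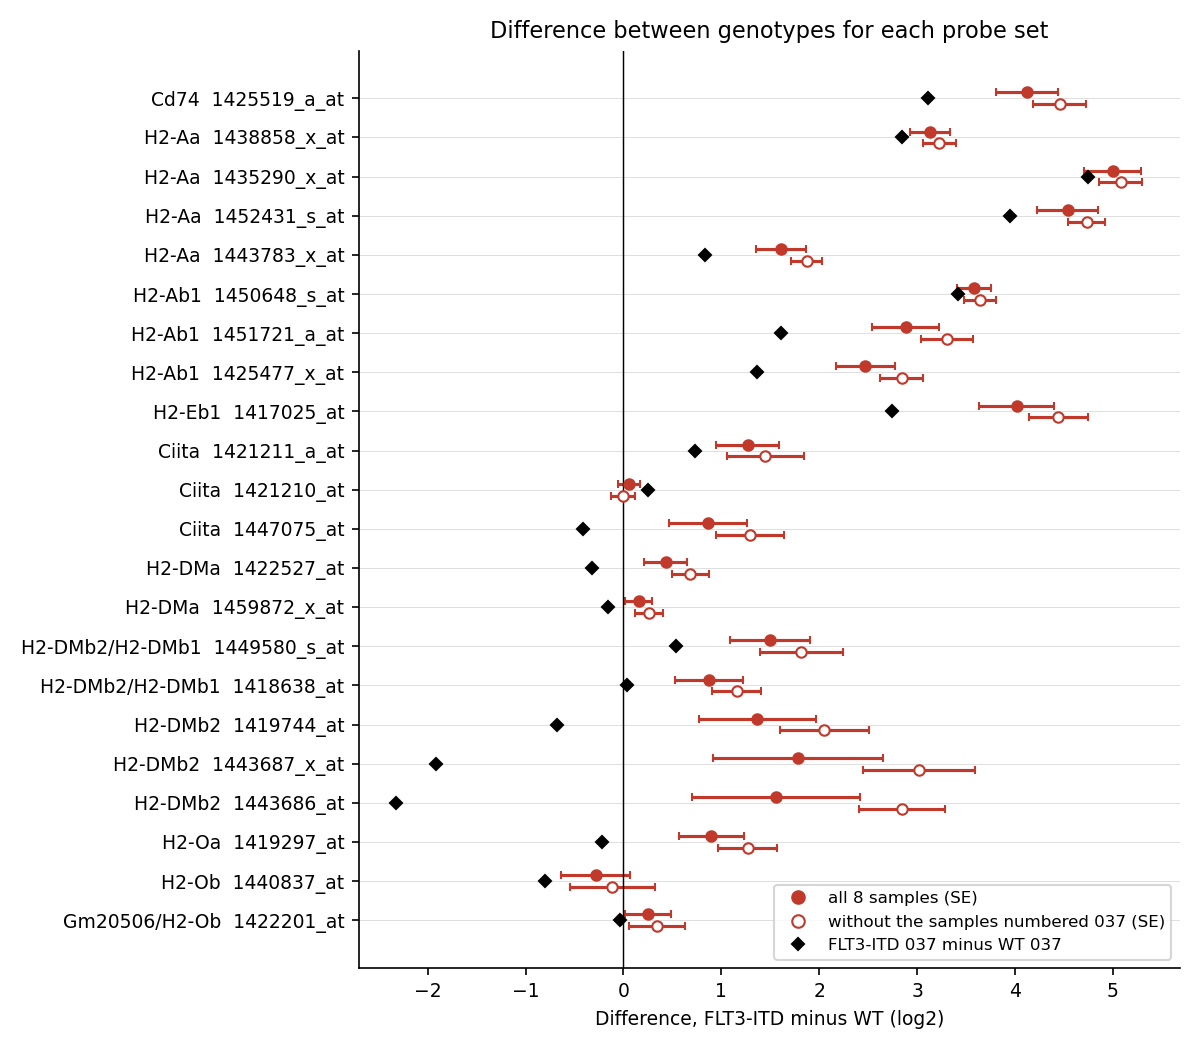
Difference FLT3-ITD minus WT (log2) for each probe set, as filled circles for all 8 samples and open circles without both samples numbered 037, bars being the standard error of the fit, with diamonds for FLT3-ITD 037 minus WT 037. The diamonds stay above 2 for most probe sets of Cd74 and the classical chains and fall below 0 for H2-DMb2.

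All chromosome 17 members lie in 1 stretch in the gene table, in the order H2-Oa, H2-DMa, H2-DMb2, H2-DMb1, H2-Ob, H2-Ab1, H2-Aa and H2-Eb1. Brd2, Psmb9, Tap1, Psmb8 and Tap2 lie between them, and none of these passed the test. Psmb9, an immunoproteasome subunit, averaged 11.14 in FLT3-ITD and 10.84 in WT without overlap, a difference of 0.30 ± 0.12 (limma adjusted p = 0.587). Psmb8, another such subunit, differed by 0.22 ± 0.15 (limma adjusted p = 0.788). Tap1 and Tap2, the peptide transporter of class I presentation, differed by 0.10 ± 0.15 and −0.15 ± 0.20 (limma adjusted p = 0.903 and 0.893), and Brd2, a chromatin reader, by −0.14 ± 0.23 (limma adjusted p = 0.917). The large differences were those of neighbouring H2-Ab1, H2-Aa and H2-Eb1. The next genes, H2-Eb2 and H2-Ea, were looked at after their values were seen. H2-Eb2 differed by 0.05 ± 0.15 (limma adjusted p = 0.956) and the brightest probe set of H2-Ea by −0.19 ± 0.15 (limma adjusted p = 0.800). The promoter entry of H2-Eb2 also held the pair of motifs.

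**Figure D4:**
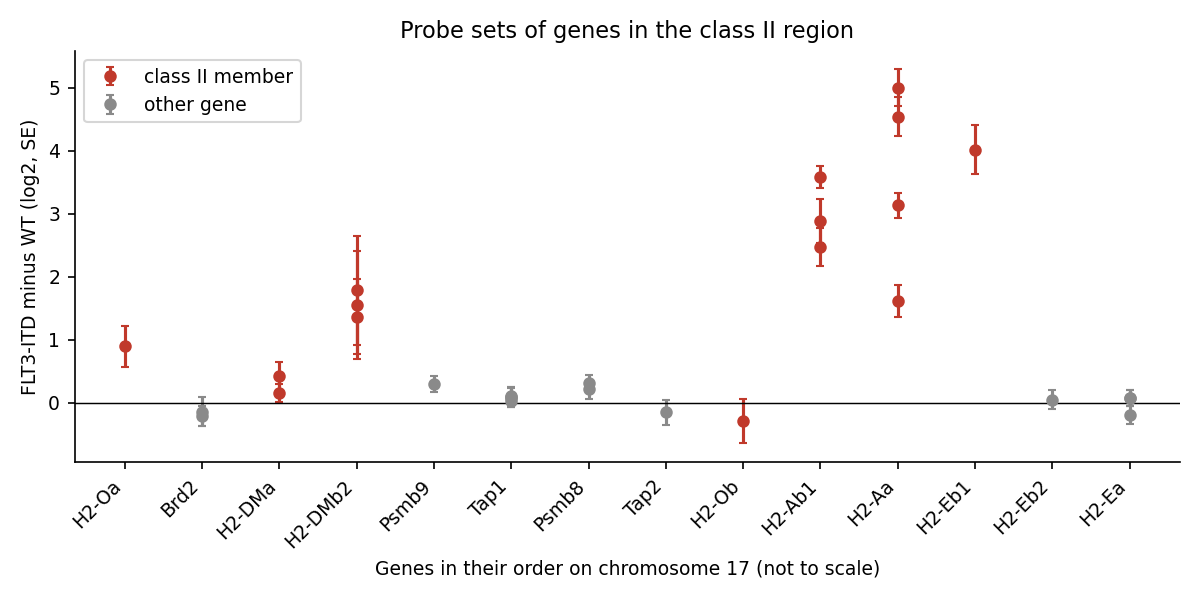
Difference FLT3-ITD minus WT (log2) with its standard error for each probe set of 1 gene, for genes in their order along chromosome 17, not to scale. Red marks class II members and grey other genes. H2-Ab1, H2-Aa and H2-Eb1 lie between 1.61 and 5.0, and the grey genes lie near 0.

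The other genes of the pathway were taken from 7 lists, which also held the lysosomal amidase Naaa. The lists were chosen with earlier results of these data known, so their counts and p-values are a description. Each gene was represented by its probe set of highest mean, and 3 of 76 measured genes rose while none fell, where 0.176% of all genes represented in this way were called higher and 0.011% lower. At an unadjusted p under 0.05, 16 of the 76 were higher and 1 was lower, beside 4.83% and 3.11% of all genes. The factors that read the X and Y boxes were in a list of class II transcription, in which 11 of 12 genes were measured and none passed, with 1 higher at an unadjusted p under 0.05. The RFX subunit genes Rfx5, Rfxap and Rfxank differed by −0.08 ± 0.17, −0.02 ± 0.15 and 0.20 ± 0.14, and the list median was −0.06, beside 0.03 over all genes. Ep300, a histone acetyltransferase that works with Ciita, read 7.64, 6.91, 7.61 and 7.61 in FLT3-ITD, against 6.56, 6.85, 6.93 and 6.84 in WT, a difference of 0.65 ± 0.19 (limma adjusted p = 0.376).

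Among regulators of Ciita, 1 of 13 measured genes rose and none fell, with a list median of 0.15. The gene was Irf8, a transcription factor of the dendritic and monocyte lineages. Irf8 read 9.61, 9.74, 9.08 and 10.03 in FLT3-ITD samples 1, 2, 3 and 037, against 7.09, 6.33, 6.71 and 7.75 in the WT samples. All FLT3-ITD values lay above all WT values, and sample 037 was the highest in both genotypes, unlike for the class II chains. The difference was 2.64 ± 0.32 (SE, limma adjusted p = 0.0221), with adjusted p from 0.0074 to 0.166 over 20 alternatives. The call was lost when any sample other than FLT3-ITD 3 or WT 037 was left out. Spi1, which encodes the myeloid factor PU.1, differed by 0.29 ± 0.12 and Irf1 by 0.27 ± 0.36, neither past the test.

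Endosomal antigen processing was the list with the highest median, 1.01, with 2 of 12 genes risen. These 2 were Naaa, a lysosomal amidase that acts on lipids rather than antigen, and Cst3, a protease inhibitor. The difference was positive in 10 of the 12, beside 55.9% of all genes. In 7 of the 12 the groups did not overlap and FLT3-ITD was higher, and in none was it lower without overlap, beside 3.41% and 2.02% of all genes. Naaa read 9.41, 9.10, 8.45 and 7.97 in FLT3-ITD samples 1, 2, 3 and 037, against 5.76, 5.12, 4.92 and 5.55 in the WT samples. Its difference was 3.39 ± 0.33 (limma adjusted p = 0.00863), and without WT sample 2 its adjusted p was 0.0527, in a range of 0.00288 to 0.0682 over 20 alternatives. Cst3, the cysteine protease inhibitor cystatin C, read 12.81, 12.66, 12.56 and 11.87 in FLT3-ITD, against 10.87, 10.84, 10.96 and 11.04 in WT. Both genes had the order of FLT3-ITD samples seen in the class II chains, with 1 highest and 037 lowest. Cst3 differed by 1.54 ± 0.20 (limma adjusted p = 0.0329, range 0.00243 to 0.18 over 20 alternatives) and lost the call without any one sample except FLT3-ITD 037. The other 5 without overlap did not pass: Ctsh differed by 2.58 ± 0.40, Ifi30 by 1.62 ± 0.26, Ctse by 1.34 ± 0.24, Ctss by 1.08 ± 0.24 and Ctsz by 0.94 ± 0.18. Ctss encodes cathepsin S, which trims the invariant chain in dendritic and B cells, and Ifi30 the thiol reductase GILT of the endosome. Ctsl, which encodes the cathepsin that trims it in the thymic cortex, differed by −0.30 ± 0.38.

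None of the genes of 4 further lists passed limma. Of their genes 5 were higher and 1 was lower at an unadjusted p under 0.05, beside 4.83% and 3.11% of all genes. Class II trafficking and turnover had a median of 0.13 over 10 genes. In it Cd83, a membrane protein that stabilises class II, differed by 0.61 ± 0.19 (limma adjusted p = 0.433) but lay below the array median on every array. Marchf1, the ubiquitin ligase that removes class II from the surface, differed by 1.16 ± 0.44 (limma adjusted p = 0.566). Costimulation had a median of −0.01 over 10 genes. Cd86, a ligand of CD28 on T cells, read 7.28, 7.43, 6.56 and 6.56 in FLT3-ITD, against 5.15, 5.79, 5.99 and 5.43 in WT, without overlap, a difference of 1.37 ± 0.26 (limma adjusted p = 0.144). Pdcd1lg2, a ligand of the inhibitory receptor PD-1, differed by −0.75 ± 0.23 (limma adjusted p = 0.405). Class I presentation had a median of 0.10 over 15 genes, and its chain genes H2-K1 and B2m differed by −0.04 ± 0.10 and 0.04 ± 0.09. Among 5 partners of CD74 in signalling by the cytokine MIF, with a median of 0.19, Mif differed by 0.22 ± 0.14 and its relative Ddt by 0.31 ± 0.21.

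**Figure D5:**
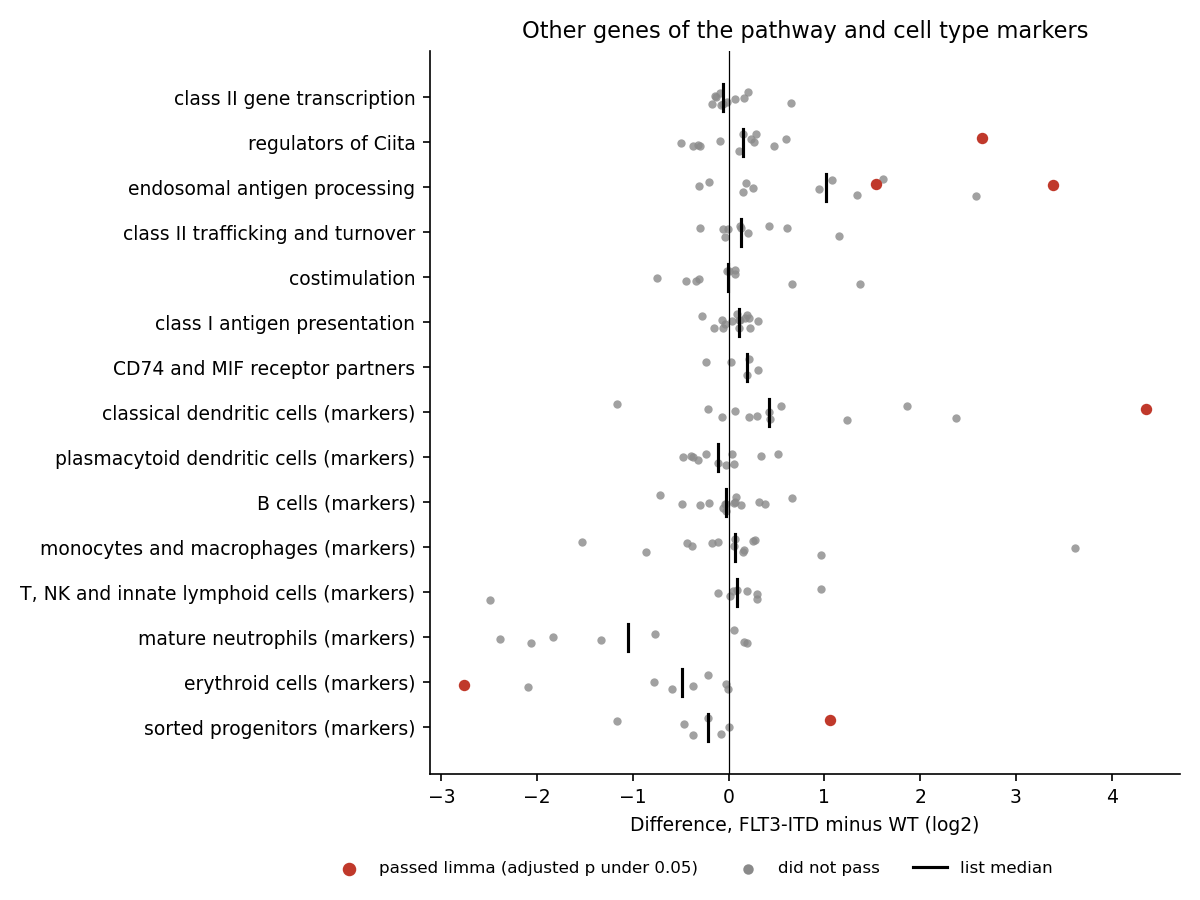
Difference FLT3-ITD minus WT (log2) of every measured gene in 7 lists of pathway genes and 8 lists of cell type markers, with 1 point per gene, moved vertically for legibility. Red points passed limma at an adjusted p of 0.05, grey points did not, and black bars are list medians. The median is highest for endosomal antigen processing, at 1.01, and lowest for mature neutrophil markers, at −1.05.

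Markers of cell types that could carry class II, of other blood cells and of the sorted progenitors were set beside these genes. These lists too were chosen with earlier results of these data known. Of 84 measured markers in 8 lists, Flt3 being in 2 of them, 2 rose and 1 fell at an adjusted p of 0.05 by limma, and 9 were higher and 12 lower at an unadjusted p under 0.05, beside 4.83% and 3.11% of all genes. Among classical dendritic cell markers 1 of 13 rose and none fell, with a median of 0.42, and 3 of 13 were below the array median on every array. The gene that rose was Tlr3, an endosomal receptor for double-stranded RNA, with 10.21, 10.20, 9.62 and 7.59 in FLT3-ITD samples 1, 2, 3 and 037, against 5.28, 5.72, 4.57 and 4.61 in the WT samples. It differed by 4.36 ± 0.58 (limma adjusted p = 0.0374), and the call was lost without any one sample except FLT3-ITD 037, with adjusted p from 0.00197 to 0.161 over 20 alternatives. Zbtb46, a transcription factor of classical dendritic cells, differed by 2.38 ± 0.53, Xcr1, a chemokine receptor of their cross-presenting subset, by 1.86 ± 0.45, and Itgax, which encodes CD11c, by 1.24 ± 0.23. The list also held differences near or below 0, with Batf3 at 0.22, Dpp4 at 0.07, Fscn1 at −0.07, Ccr7 at −0.22 and Flt3 at −1.17, the last without overlap. None of these 8 passed. In 5 of the 13 markers FLT3-ITD was higher without overlap, Tlr3, Zbtb46, Xcr1 and Itgax among them. In 1, Flt3, it was lower without overlap. The shares over all genes were 3.41% and 2.02%. In Zbtb46, Xcr1 and Itgax FLT3-ITD sample 037 was the lowest of its genotype, as it was for Cd74. It was also the lowest for Tlr3, Dpp4, Ccr7 and Flt3, but not for Batf3 or Fscn1. Over all probe sets it was the lowest in 24.5%. The mean level over the 13 markers was 6.25 to 7.04 in FLT3-ITD and 5.80 to 6.09 in WT (exact two-sided permutation p = 0.0286, the smallest that 4 against 4 samples allow, adjusted p = 0.143 over 10 such comparisons). The part of dendritic cell RNA in the class II values was not tested.

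Plasmacytoid dendritic cell markers had a median of −0.11 over 11 genes, with Ccr9 at −0.40 ± 0.17 and Lag3 at −0.48 ± 0.24, and no calls. B cell markers had no calls either, with a median of −0.02 over 15 genes, and the mean level was 5.58 to 5.88 in FLT3-ITD and 5.62 to 5.86 in WT (exact permutation p = 0.914). The B cell genes Cd79a, Ms4a1 and Ebf1 and 4 other B cell markers, Blnk among them, were below the array median on every array. Fcrla differed by 0.66 ± 0.19 and the dim Blnk by −0.72 ± 0.26. Among 14 monocyte and macrophage markers none passed. Their median was 0.06, and the mean level was 6.05 to 6.29 in FLT3-ITD and 5.77 to 6.11 in WT (exact permutation p = 0.229). Ccr2, a chemokine receptor of inflammatory monocytes, had the largest difference, 3.62 ± 0.53 (limma adjusted p = 0.0584, and 0.0487 without WT sample 2, in a range of 0.0213 to 0.208 over 20 alternatives). As the mean over its probe sets Ccr2 differed by 2.60. C1qb differed by −1.53 ± 0.63 and Csf1r by 0.96 ± 0.61, both with overlapping groups, and 5 of the 14 were below the array median on every array. Vcam1, an adhesion molecule, differed by −0.87 ± 0.27.

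T, NK and innate lymphoid markers had a median of 0.09 over 9 genes, with Gata3 at 0.30 ± 0.15 and Il7r, the interleukin-7 receptor, at −2.49 ± 0.35 (limma adjusted p = 0.0538, and 0.0416 without WT sample 037, in a range of 0.0347 to 0.272 over 18 alternatives). Neutrophil markers had a median of −1.05 over 8 genes, with the granule protein genes Ngp at −2.39 ± 0.69 and Ltf at −0.77 ± 0.31, and none passed. Of 8 erythroid markers none was positive and Hbb-b2, a globin, fell by 2.76 ± 0.31 (limma adjusted p = 0.0178). Its call was lost without FLT3-ITD sample 2 or any WT sample, with adjusted p from 0.00576 to 0.128 over 20 alternatives. The mean level of the erythroid markers was 6.28 to 6.79 in FLT3-ITD and 7.08 to 7.55 in WT (exact permutation p = 0.0286, adjusted p = 0.143). Of 7 markers of the sorted progenitors Cd48 rose by 1.06 ± 0.12 (limma adjusted p = 0.0178), a call lost without FLT3-ITD sample 2 or 3 or WT sample 1 or 2, with adjusted p from 0.0074 to 0.131 over 20 alternatives. Flt3 itself differed by −1.17 ± 0.19 without passing, and Cd34 by −0.08.

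Genes whose pattern was most like that of Cd74 were found by the root mean square distance of log2 values centred on each gene's mean, over the 8 samples. Among 18184 genes outside the set, with a median distance of 2.11, the nearest were Id2 at 0.283, Naaa at 0.466, Ccr2 at 0.544, Clec1a at 0.586, Plbd1 at 0.612 and Mpeg1 at 0.651. Being chosen for their likeness to Cd74, they have a difference between the genotypes by choice. Id2, an inhibitor of E proteins, read 9.41, 9.12, 8.83 and 8.31 in FLT3-ITD samples 1, 2, 3 and 037, against 5.67, 4.75, 4.84 and 5.37 in the WT samples. Mpeg1, a pore-forming protein of phagocytes, read 11.05, 10.72, 10.51 and 9.77 in FLT3-ITD, against 7.21, 7.52, 7.18 and 7.97 in WT. Of the other members, H2-Eb1 lay at 0.418 from Cd74, H2-Ab1 at 0.434 and H2-Aa at 0.562. Ciita lay at 1.49, H2-DMb2 at 1.48, H2-Oa at 1.67, H2-DMa at 1.87 and H2-Ob at 2.30, beyond the median gene. The values were not scaled, so this distance largely follows the size of the difference between the genotypes. The order of the members by distance restates the order of their FLT3-ITD minus WT differences and is no separate result. Id2 was nearer to Cd74 than any class II member was, but it was the nearest of 18184 genes searched. Each member was taken here by its probe set of highest mean alone, so the comparison favours Id2 by choice.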

How the data were processed

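Each sample has 1 deposited log2 value for every probe set of a mouse array, produced by RMA per the submitters' processing notes. RMA corrects background, brings all arrays to a common distribution and combines the probes of a set; no source used here gives its version. Per the labels' protocols, Trizol was used for extraction, a NuGEN kit for amplification and biotin as label. Array medians were 5.98 to 6.05 and values 1.96 to 14.61. Scanner signals were not used here, and the number of arrays limits the precision.

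Of 45101 probe sets, 64 controls were left out. FLT3-ITD was compared with WT over the other 45037 with limma 3.58.1 in R 4.3.3 (lmFit and eBayes), with no covariate and no filter on dim values, and Benjamini-Hochberg adjustment over all of them. Adjusted p-values of genes are limma's. Fold is 2 to the power of the log2 difference, which in RMA values understates large differences at low signal. The annotation, of 2016, gave 1 gene to 34945 probe sets, several to 932 and none to 9160, and symbols of 34741 were updated by Entrez ID. Each of 18193 genes stood for its brightest probe set of that gene alone. Means over marker lists and control probe sets were compared by exact permutation tests (scipy 1.17.1).

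Members and lists were chosen with earlier results of these data known. Named were all members, all genes between them on chromosome 17, up to 6 genes of each list past the test or else the 2 with the smallest p, and the 6 genes nearest to Cd74. Others were named after their values were seen, among them Kit, Flt3, Cd34, Slamf1, H2-Eb2, H2-Ea, the RFX genes, Spi1, Irf1, the cathepsins and Ifi30. So were Zbtb46, Xcr1, Itgax, Batf3, Dpp4, Fscn1, Ccr7, C1qb, Csf1r, H2-K1, B2m and the dim B cell markers. The procedure was tested on simulated data. Alternatives covered replicate numbers, repeats, filter, probe set choice, normalization, variance model and each sample left out.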

Additional observations from a re-analysis of the deposited data

Results flagged for a closer look

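Single samples far from the others of their genotype were sought in 104 groups of 4 samples, by the gap of the highest or lowest sample to its neighbour as a share of the range, by Dixon's test. The rule marked 9 groups, where chance marks about 1 in 20. Among members, FLT3-ITD sample 1 read 8.30 for Ciita at 1421211_a_at, above 6.75 to 6.90 in the other FLT3-ITD samples. FLT3-ITD sample 037 was low for H2-DMb2 at 1443687_x_at with 5.58, against 8.52 to 8.80 in the others, and at 1443686_at with 5.30, against 8.31 to 8.72. It was also low for H2-DMa at 1459872_x_at with 6.88, against 7.26 to 7.34. WT sample 3 read 5.88 for H2-Eb1, below 6.73 to 6.83, and WT sample 037 read 5.25 for Ciita at 1447075_at, above 4.88 to 4.92. Outside the set, FLT3-ITD sample 2 read 6.91 for Ep300, below 7.61 to 7.64. FLT3-ITD sample 037 read 11.69 for Psme1, a proteasome activator subunit, above 11.46 to 11.47. WT sample 1 read 7.04 for Ccr9, above 6.61 to 6.65. The causes were not tested.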

How the results depend on the processing

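The number of member probe sets called higher, 8, was 6 to 9 on leaving out each sample, 5 with the replicate block and 4 with one probe set per gene together with the filter, where fewer were tested; none was called lower under any of 19 alternatives. The main fit did not pair the samples by replicate number, as the labels state no pairing. Same-numbered samples deviated together at r of 0.0282 to 0.0792, against −0.0609 to 0.0481 for the other pairs. Only FLT3-ITD sample 2 correlated best with another number, WT sample 3, at 0.0481. These values point weakly towards a pairing, and the replicate block is the alternative that allows for it. Pathway genes called higher, 3, were 0 with the replicate block, 5 with the filter on dim probe sets, with one probe set per gene together with that filter and with the mean over probe sets, and 0 to 3 leaving out each sample; none was called lower. Marker genes called higher, 2, were 0 with the replicate block and 0 to 3 leaving out each sample. Marker genes called lower, 1, were 0 with the replicate block and, in alternatives added after seeing the data, 0 without both samples numbered 037 and 0 without FLT3-ITD samples 1 and 037. They were 2 with the filter, the intensity trend, centred arrays and probe sets with 1 gene, 3 with one probe set per gene together with the filter, array weights and the mean over probe sets, and 0 to 2 leaving out each sample. Over all probe sets, calls were 50 higher and 13 lower, and 15 to 74 and 1 to 30 over 20 alternatives. Beyond fewer samples or probe sets, the cause was not tested. Cd74 and the brightest probe sets of H2-Aa and H2-Ab1 were called in all 19 alternatives. H2-Eb1 was called in 18, the exception being the replicate block. No named difference of a called gene reversed, but sizes moved. Over 20 alternatives Naaa differed by 1.71 to 3.72, Tlr3 by 2.94 to 4.96 and Hbb-b2 by −3.05 to −1.45. Irf8 differed by 2.11 to 2.90, Cst3 by 1.43 to 1.78 and Cd48 by 1.00 to 1.12. Leaving out samples from the permutation tests leaves designs that cannot pass the threshold, so these were not run.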
